A study of Mus musculus with 8 samples.

Results

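The genes of the epithelial and phagocyte NADPH oxidases were followed in the inflamed colon of mice with and without arginase 1. The set was chosen by name and held 9 genes, Duox2, Duoxa2, Nox1, Noxo1, Noxa1, Cybb, Cyba, Ncf1 and Ncf4. All 9 were found by symbol among the 53465 genes of the deposited table, and all 9 were among the 16380 genes with a mean value of at least 3 that were tested. The wild-type group comprised 4 littermates that kept Arg1 and the Arg1 ko group comprised 4 mice with a conditional deletion in a cell type that the labels do not name. Every mouse was on the B6 background, 7 to 12 weeks old, and had received 2.5% dextran sulfate sodium (DSS), which damages the colon lining and so causes colitis, for a week and then plain water until day 10. No group without DSS is among the samples, so the values show oxidase expression in recovering colitis only. RNA came from epithelial aggregates that were shaken off colon pieces in EDTA and purified by sedimentation, although the labelled source is colon tissue.

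NADPH oxidases pass electrons from NADPH across a membrane to oxygen, which yields superoxide or hydrogen peroxide. In the gut lining DUOX2, which needs its maturation factor DUOXA2 to reach the cell surface, releases hydrogen peroxide toward the lumen, and NOX1, with the organiser NOXO1 and the activator NOXA1, makes superoxide in colon epithelium. In neutrophils and macrophages the membrane pair gp91phox (Cybb) and p22phox (Cyba) is switched on by cytosolic subunits that include p47phox (Ncf1) and p40phox (Ncf4), and p22phox also serves NOX1. These enzymes are known as part of the defence against gut microbes.

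Expression is given as the deposited regularised log2 values (rlog), in which a difference of 1 stands for a doubling, reduced by a pull toward each gene's mean that is stronger in weakly expressed genes. Depth per library is unknown, since rlog keeps no counts. Arg1 itself was 5.59, 5.57, 5.02 and 5.58 in wild type 1 to 4 and 5.06, 4.87, 5.15 and 5.19 in Arg1 ko 1 to 4. The library labelled wild type 3 therefore lay within the ko range for the deleted gene, and the members' differences are also given without it. Of the 8 epithelial marker genes 7 had a lower and 1 a higher mean in Arg1 ko, at a median difference of -0.16. Those genes, Krt8, Krt19, Epcam and Cdh1 the highest, were strongly expressed in every library. Smooth muscle markers, Myh11, Acta2, Tagln and Actg2 the highest, were strong too, with a summed level (log2 of the summed linear values) of 16.5 to 17.0 against 17.6 to 18.1 for the epithelial list, so the RNA was not of epithelium alone. In such mixed tissue fewer cells of a type and less RNA per cell cannot be told apart. The submitters' sample numbers run through the wild-type mice and then the ko mice, so any batch in that order cannot be told apart from genotype.

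Between Arg1 ko and wild type, Nox1 was the oxidase gene with the largest difference, and none of the 9 passed the test. The test was limma's moderated test over all 16380 genes with Benjamini-Hochberg adjustment, under which 0 of 9 members and 0.0% of all genes had an adjusted p under 0.05. The smallest adjusted p among the members was 0.522. At an unadjusted p under 0.05 there was 1 of 9 members, Nox1, where 9.1% of all genes reached that level. Without the library labelled wild type 3 it was 3 of 9, Duox2, Nox1 and Cyba, beside 28.1% of all genes. In the ko mice 6 of the 9 members had a higher and 3 a lower mean, at a median difference of 0.12, where over all tested genes 8386 were higher and 7994 lower with a median of 0.0064. In none of the 9 did the 4 ko values lie wholly apart from the 4 wild-type values, as they did in 4.03% of all genes. At the adjusted level no member passed without that library either, although 1005 genes (6.14%) then did. After a correction for transcript length, chosen after seeing the data, no member passed, and the differences were -0.0036 for Duox2, -0.25 for Duoxa2, 1.09 for Nox1, -0.086 for Noxo1, 0.14 for Noxa1, 0.087 for Cybb, -0.20 for Cyba, 0.15 for Ncf1 and 0.25 for Ncf4. Set beside the uncorrected values given with each gene, those of Duox2, Noxo1, Noxa1, Cybb, Cyba and Ncf4 moved by more than 1.5 times.

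**Figure D1:**
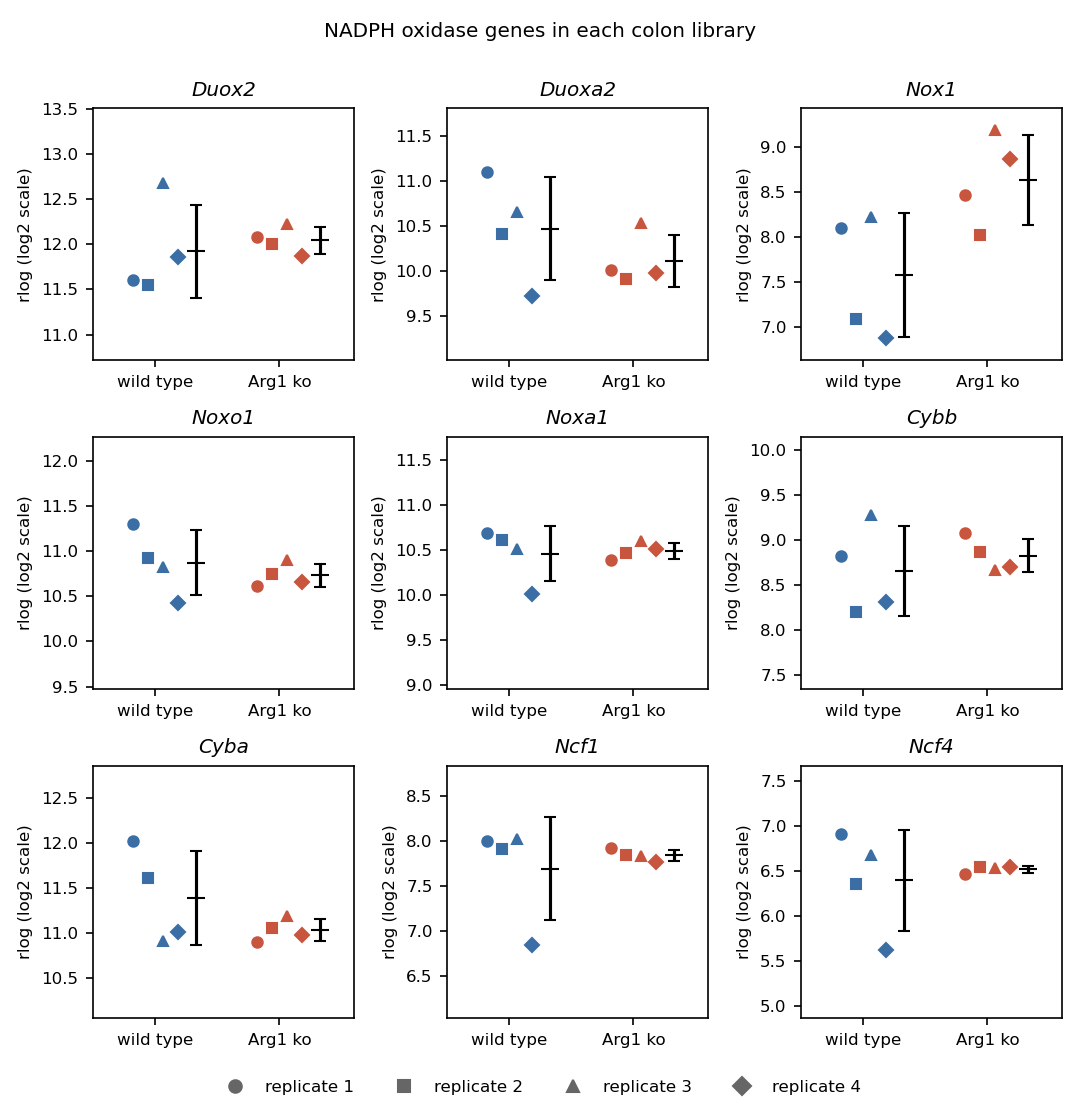
Values of the 9 oxidase genes (vertical axis, rlog on a log2 scale, each panel spanning the same range) in 4 wild-type (blue) and 4 Arg1 ko (red) libraries, with the mean and SD of each group in black. Nox1 sits higher in the ko libraries with overlap, and wild type 4 is the low point of Ncf1 at 6.84 and Ncf4 at 5.62.

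Taken per length, the genes fell into 3 tiers of expression. On the scale of rlog minus log2 of the longest transcript in kilobases, the p22phox gene Cyba stood highest, at 11.81 ± 0.52 in wild type (SD, n = 4) and 11.46 ± 0.12 in Arg1 ko (SD, n = 4), above 97.2% of tested genes. Next came the epithelial partners and Duox2, with means over the 8 libraries of 9.78 for Noxa1, 9.64 for Noxo1, 9.62 for Duoxa2 and 9.37 for Duox2. The lowest tier held Nox1 (6.75), Cybb (6.49), Ncf1 (6.24) and Ncf4 (5.90), the last above 36.0% of tested genes. The steps from Cyba to Noxa1 (1.85) and from Duox2 to Nox1 (2.63) were larger than the SD of either neighbour over the 8 libraries. All other steps between neighbours, 0.023 to 0.33, were smaller than the larger SD of the neighbours, so no order within a tier is read from these means. Differences taken within each library were not used for this ranking. Nox1 was therefore expressed well below its own organiser and activator. With the union of all exons in place of the longest transcript the tiers had the same members, and Noxo1 moved to 9.21, below Duox2.

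The DUOX2 enzyme and its maturation factor are encoded head to head on chromosome 2, and the distance between their RNA levels varied among the wild-type mice. Duox2 (ENSMUSG00000068452, chromosome 2, 122279247 to 122298449, minus strand, GRCm38) and Duoxa2 (ENSMUSG00000027225, chromosome 2, 122298900 to 122302885, plus strand) start 673 bases apart in RefSeq. The 250 bases before each start (RefSeq, GRCm38.p6, chr2:122298228-122298477 on the minus strand and chr2:122298650-122298899 on the plus strand) are shown 5′ to 3′ because these are divergent neighbours whose products work as one. The GENCODE start of Duox2 lies 222 bases upstream of the RefSeq start, so 222 of the 250 bases of its window are inside the GENCODE gene. Capitals mark matches to any of 5 motifs, searched on both strands.
Duox2: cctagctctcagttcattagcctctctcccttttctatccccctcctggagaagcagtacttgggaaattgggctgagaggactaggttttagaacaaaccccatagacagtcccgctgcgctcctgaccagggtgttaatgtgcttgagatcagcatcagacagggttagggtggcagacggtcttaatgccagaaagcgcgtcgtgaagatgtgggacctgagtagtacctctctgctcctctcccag
Duoxa2: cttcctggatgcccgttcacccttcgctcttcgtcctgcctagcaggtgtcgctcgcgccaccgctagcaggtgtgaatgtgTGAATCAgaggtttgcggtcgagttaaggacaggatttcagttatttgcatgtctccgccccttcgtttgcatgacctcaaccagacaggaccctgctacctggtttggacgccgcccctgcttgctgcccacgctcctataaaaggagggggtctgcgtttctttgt
The motifs were TTCNNNGAA for STAT factors, TGANTCA for AP-1, GAGGAAG for the factor PU.1, AGATAA for GATA factors and, by its usual degenerate letters, that of NF-kB. Among all 32851 RefSeq promoter windows of 250 bases, 7.02% held the STAT, 6.75% the AP-1, 10.6% the PU.1, 9.99% the GATA and 7.25% the NF-kB letters. The Duoxa2 window matched the AP-1 letters, as TGAATCA, from 168 bases before its start, and the Duox2 window held none of the 5. The AP-1 pattern, with any base at N, reads the same on both strands, so it matched on both. Such a match is a run of letters and was not tested for binding.

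Duox2 was 11.61, 11.55, 12.68 and 11.86 in wild type 1 to 4, and 12.08, 12.00, 12.23 and 11.87 in Arg1 ko 1 to 4. A single wild-type library, the one labelled wild type 3, was the highest of all 8, while the other 3 wild-type libraries lay below every ko library. Averages were 11.92 ± 0.52 in wild type (SD, n = 4) and 12.05 ± 0.15 in Arg1 ko (SD, n = 4), which differ by 0.12 (standard error 0.22, 95% interval -0.37 to 0.62; limma adjusted p = 0.816, range over the alternatives 0.0811 to 1.00). Leaving out the library labelled wild type 3 gave a Duox2 difference of 0.38 (95% interval 0.11 to 0.64), the groups did not overlap, and the adjusted p was 0.0811, still short of the threshold. That 1 of 9 members then had groups apart compares with 25.6% of all genes. Leaving out the highest wild-type value enlarges the difference by construction.

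Duoxa2 was 11.09, 10.42, 10.65 and 9.72 in wild type 1 to 4, and 10.01, 9.91, 10.53 and 9.97 in Arg1 ko 1 to 4. Its wild-type values spanned 1.38 and took in every ko value, with wild type 1 the highest and wild type 4 the lowest library of the 8. Averages were 10.47 ± 0.57 in wild type (SD, n = 4) and 10.11 ± 0.29 in Arg1 ko (SD, n = 4), which differ by -0.36 with a 95% interval of -0.94 to 0.22 (limma adjusted p = 0.576). Without wild type 1 the difference was -0.15, without wild type 4 it was -0.61 and without the library labelled wild type 3 it was -0.30, so its size rests on single libraries. Its last 695 bases overlap Duoxa1 on the opposite strand, a gene listed at 0.97 to 1.21, and whether counting used the strand was not given in the sources used here.

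Set against each other within a library, Duox2 minus Duoxa2 was 0.51 in wild type 1, 1.13 in wild type 2, 2.03 in that labelled wild type 3, and 2.14 in wild type 4. In the 4 ko libraries it was 1.69 to 2.09. The genes thus stood closest together in wild type 1 and 2, and the other 2 wild-type libraries were level with the ko libraries. The genes whose deviations over the 8 libraries lay nearest to those of Duox2, among 13026 compared by root mean square distance, were Arhgap45 (distance 0.13), Pcx (0.14), Aox1 (0.14), Acsl1 (0.14) and Dock2 (0.15). Pcx encodes pyruvate carboxylase, Acsl1 a ligase that activates fatty acids, and Dock2 an activator of Rac in leukocytes. Duox2 itself deviated from its mean by 0.34 in root mean square. Duoxa2, at 0.54, was farther from Duox2 than 89.3% of those genes. The distance also grows with a gene's own spread, which in wild type was wide for Duoxa2 (SD 0.57, median over all tested genes 0.26). It is therefore not a measure of how closely these genes varied together.

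Nox1 (ENSMUSG00000031257, chromosome X, 134086421 to 134221956, minus strand, GRCm38), the catalytic subunit of the colon's superoxide-making oxidase, was 8.10, 7.09, 8.23 and 6.88 in wild type 1 to 4. In Arg1 ko 1 to 4 it was 8.46, 8.03, 9.18 and 8.87. Of the 4 ko libraries 3 were above every wild-type library, and Arg1 ko 2 fell between the upper and the lower pair of wild-type libraries. Averages were 7.57 ± 0.69 in wild type (SD, n = 4) and 8.63 ± 0.50 in Arg1 ko (SD, n = 4), which differ by 1.06 (standard error 0.34), or 2.09-fold on this shrunken scale. The 95% interval was 0.30 to 1.82 and the unadjusted limma p was 0.0111, but the adjusted p was 0.522 (range over the alternatives 0.0616 to 0.819), so the difference did not pass. A difference of this size in either direction was found in 0.0733% of the tested genes. It was 1.28 without the library labelled wild type 3 (limma adjusted p = 0.0616). Without Arg1 ko 2 it was 1.26 and the groups lay apart, as they then did in 7.61% of all genes.

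**Figure D2:**
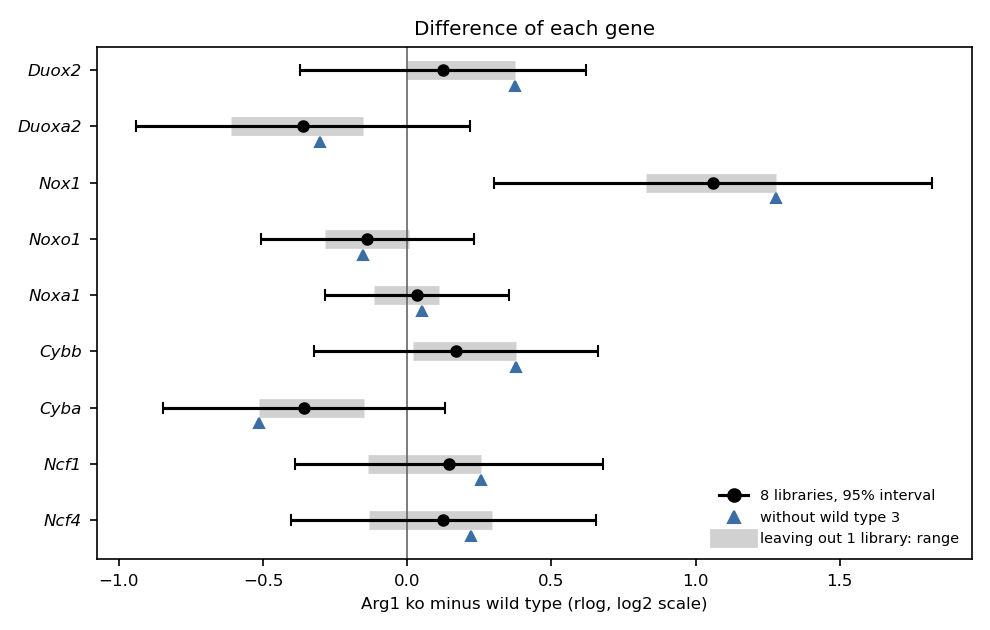
Difference of each oxidase gene, Arg1 ko minus wild type (horizontal axis, rlog on a log2 scale), with its 95% limma interval (black), the range on leaving out each of the 8 libraries (grey) and the value without the library labelled wild type 3 (blue triangles). The interval of Nox1, 0.30 to 1.82, is the only one of the 9 that does not span 0, and it is not adjusted for the number of genes.

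The 250 bases before the Nox1 start in RefSeq (GRCm38.p6, chrX:134111855-134112104, minus strand), the gene with the largest difference, are shown with motif matches in capitals.
Nox1: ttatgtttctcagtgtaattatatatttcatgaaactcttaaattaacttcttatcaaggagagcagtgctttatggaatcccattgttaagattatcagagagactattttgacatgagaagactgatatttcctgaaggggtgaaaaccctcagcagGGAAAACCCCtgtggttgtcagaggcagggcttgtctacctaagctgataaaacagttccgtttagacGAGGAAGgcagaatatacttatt
They held the NF-kB letters on the opposite strand from 91 bases before the start and the PU.1 letters on the gene's own strand from 23 bases before it. The GENCODE gene reaches 110102 bases farther upstream, so the window is inside it, and overlaps Xkrx on the same strand and Cstf2 and Arl13a on the other. Xkrx was listed at 3.24 to 3.86 and Arl13a below 0, while Cstf2, with 399 shared bases, was at 9.35 to 10.00.

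Some mature colonocyte genes were high in the libraries with the most Nox1. The mature colonocyte list, Car1, Guca2a, Krt20 and Car4 its highest members, had its highest mean deviations in Arg1 ko 3 (0.58) and Arg1 ko 4 (0.38), the libraries with the most Nox1. The list was at -0.46 in Arg1 ko 2 and -0.62 in the library labelled wild type 3, and at -0.07 to 0.21 in the other 4. Among its 8 members 6 had a higher mean in Arg1 ko, with a median difference of 0.15, and none passed. In Arg1 ko 3, 7 of the 8 genes were above their own mean over the 8 libraries, and in Arg1 ko 4 it was 4 of 8, beside 6 of 8 in wild type 2. The list's mean rested largely on 3 transport genes, named after their values were seen, Slc37a2 (11.95 and 11.79 in Arg1 ko 3 and 4), Aqp8 (11.59 and 10.82) and Slc26a3 (13.05 and 12.99). Guca2a, at 15.01 and 14.87, was below its mean in both libraries. Nox1 and this list parted in wild type 4 and wild type 2, where Nox1 was lowest and the list was near its mean. They also parted in the library labelled wild type 3, where Nox1 was above its mean (0.12) and the list was lowest (-0.62). By root mean square distance the genes nearest to Nox1 were Rad54l (0.27), Knl1 (0.27), Ect2 (0.29), Ankle1 (0.29) and Gsdmc4 (0.30). Rad54l acts in DNA repair by recombination, Knl1 in the kinetochore and Ect2 in cell division. Nox1 itself deviated from its mean by 0.74 in root mean square. The 5 genes had differences of 0.68, 0.88, 0.85, 0.63 and 0.73, and none passed. They were picked as the nearest of 13026 genes, so differences of the same sign as that of Nox1 follow from the choice. The part of colonocyte number or cell division in the Nox1 values was not tested.

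The organiser and activator of NOX1 had small differences with opposite signs. Noxo1 (ENSMUSG00000019320, chromosome 17, 24696234 to 24700529, plus strand) was 11.31, 10.93, 10.82 and 10.43 in wild type 1 to 4, and 10.61, 10.75, 10.91 and 10.66 in Arg1 ko 1 to 4. Its ko values all lay inside the wild-type range, with a difference of -0.14 and a 95% interval of -0.51 to 0.23 (limma adjusted p = 0.721), and of -0.16 without the library labelled wild type 3. Noxo1 shares 2581 bases with Tbl3 on the other strand, which was expressed as well, so reads of both could mix if strand was not used. Noxa1 (ENSMUSG00000036805, chromosome 2, 25085667 to 25095149, minus strand) was 10.69, 10.61, 10.51 and 10.02 in wild type 1 to 4, and 10.39, 10.46, 10.60 and 10.51 in Arg1 ko 1 to 4. Its difference was 0.033 with a 95% interval of -0.29 to 0.35 (limma adjusted p = 0.928), which leaves out a change as large as that measured for Nox1. It was 0.05 when the library labelled wild type 3 was left out. Both partners were lowest in wild type 4.

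Within a library, Nox1 minus Noxo1 was -3.21, -3.83, -2.60 and -3.56 in wild type 1 to 4, and -2.15, -2.73, -1.73 and -1.79 in Arg1 ko 1 to 4. Against its organiser, then, Nox1 was higher in 3 ko libraries than in any wild-type library, and Arg1 ko 2 lay just below the library labelled wild type 3. It averaged -3.30 ± 0.53 in wild type (SD, n = 4) and -2.10 ± 0.46 in Arg1 ko (SD, n = 4). For Nox1 minus Noxa1 the averages were -2.88 ± 0.55 in wild type (SD, n = 4) and -1.86 ± 0.44 in Arg1 ko (SD, n = 4), with the same single overlap. These within-library differences were not put to a test.

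**Figure D3:**
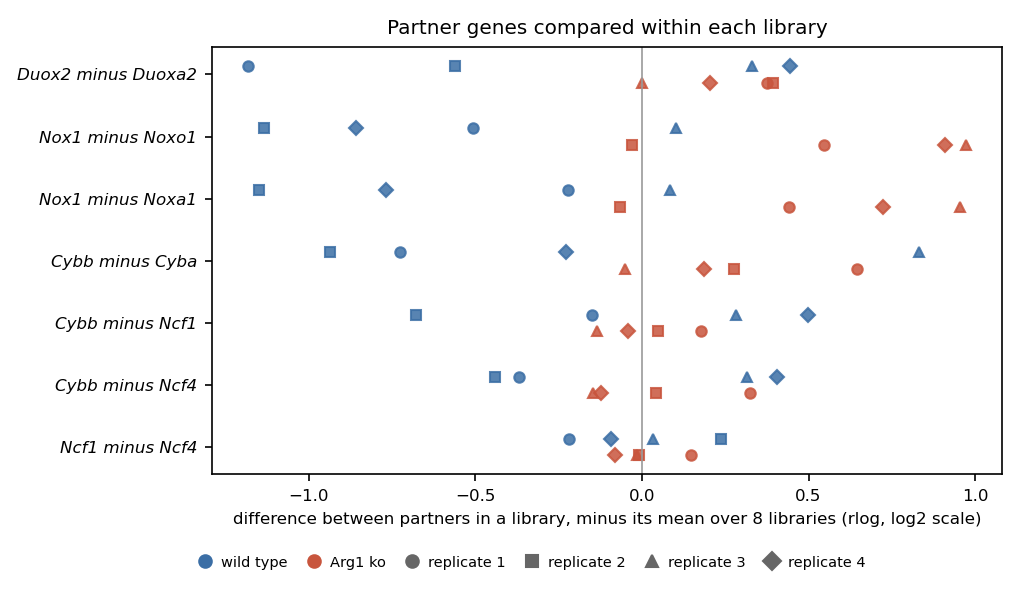
Difference between partner genes in each library after subtraction of its mean over the 8 libraries (horizontal axis, rlog on a log2 scale), wild type in blue and Arg1 ko in red. The widest spread is that of Nox1 against Noxo1, 2.11 from end to end, and the narrowest that of Ncf1 against Ncf4, 0.45.

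Of the phagocyte membrane pair, Cybb and Cyba went different ways among the wild-type mice. Cybb (ENSMUSG00000015340, chromosome X, 9435252 to 9487771, minus strand), the catalytic gp91phox, was 8.83, 8.21, 9.28 and 8.32 in wild type 1 to 4, and 9.07, 8.87, 8.67 and 8.70 in Arg1 ko 1 to 4. The ko values lay inside the wild-type range, whose ends were wild type 2 and the library labelled wild type 3. Cybb differed by 0.17, with a 95% interval of -0.32 to 0.66 (limma adjusted p = 0.744). Leaving out the library labelled wild type 3 gave 0.38 (limma adjusted p = 0.185), and leaving out wild type 2 gave 0.019. Cyba (ENSMUSG00000006519, chromosome 8, 122424776 to 122432930, minus strand), the p22phox shared by both oxidases, was 12.02, 11.61, 10.92 and 11.01 in wild type and 10.89, 11.06, 11.19 and 10.98 in Arg1 ko. Here wild type 1 and 2 stood above all other libraries, and the other 2 wild-type libraries were level with the ko libraries. The difference was -0.36 with a 95% interval of -0.85 to 0.13 (limma adjusted p = 0.545). It was -0.52 without the library labelled wild type 3 (95% interval -0.99 to -0.04, limma adjusted p = 0.149). Without wild type 1 it was -0.15. The Cyba transcript is short, at 744 bases.

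The cytosolic subunits Ncf1 and Ncf4 varied together and were low in wild type 4. Ncf1 (ENSMUSG00000015950, chromosome 5, 134220053 to 134229625, minus strand), p47phox, was 8.00, 7.91, 8.02 and 6.84 in wild type 1 to 4, and 7.92, 7.84, 7.83 and 7.77 in Arg1 ko 1 to 4. Ncf4 (ENSMUSG00000071715, chromosome 15, 78244801 to 78262580, plus strand), p40phox, was 6.91, 6.36, 6.68 and 5.62 in wild type and 6.46, 6.54, 6.53 and 6.54 in Arg1 ko. In both genes wild type 4 was by far the lowest library, and the ko libraries were within 0.15 of one another for Ncf1 and within 0.076 for Ncf4. The differences were 0.15 (95% interval -0.39 to 0.68, limma adjusted p = 0.798) and 0.12 (95% interval -0.40 to 0.65, limma adjusted p = 0.828). Without wild type 4 both turned negative, to -0.14 and -0.13, and without the library labelled wild type 3 they were 0.26 and 0.22. Ncf1 minus Ncf4 stayed between 1.09 and 1.55 in the 8 libraries, the tightest of the 7 pairs compared, while Cybb minus Ncf1 ran from 0.30 to 1.48. Ncf1 shares 4303 bases with Gtf2ird2 on the other strand, a gene at 7.39 to 7.57.

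The 250 bases before the RefSeq starts of Cybb (GRCm38.p6, chrX:9469325-9469574, minus strand) and Ncf1 (chr5:134229626-134229875, minus strand) are shown because their RNA differed in how it varied among wild-type mice.
Cybb: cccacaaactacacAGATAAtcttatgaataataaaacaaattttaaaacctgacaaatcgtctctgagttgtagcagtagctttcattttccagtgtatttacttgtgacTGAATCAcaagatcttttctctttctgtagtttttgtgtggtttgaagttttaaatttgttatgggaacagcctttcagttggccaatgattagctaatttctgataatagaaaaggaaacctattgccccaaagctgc
Ncf1: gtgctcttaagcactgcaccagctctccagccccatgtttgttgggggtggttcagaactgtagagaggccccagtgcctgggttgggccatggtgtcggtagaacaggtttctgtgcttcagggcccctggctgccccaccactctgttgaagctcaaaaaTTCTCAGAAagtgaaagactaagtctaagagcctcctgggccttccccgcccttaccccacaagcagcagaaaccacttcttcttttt
The Cybb window lies wholly inside the GENCODE gene, which reaches 18447 bases farther upstream. It held the GATA letters from 236 bases and the AP-1 letters from 139 bases before the start. The Ncf1 window matched the STAT letters, as TTCTCAGAA, from 88 bases before its start, and that pattern too reads the same on both strands. In the remaining windows found, Noxa1 held the NF-kB and GATA letters, Cyba the GATA letters and Noxo1 none of the 5.

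**Figure D4:**
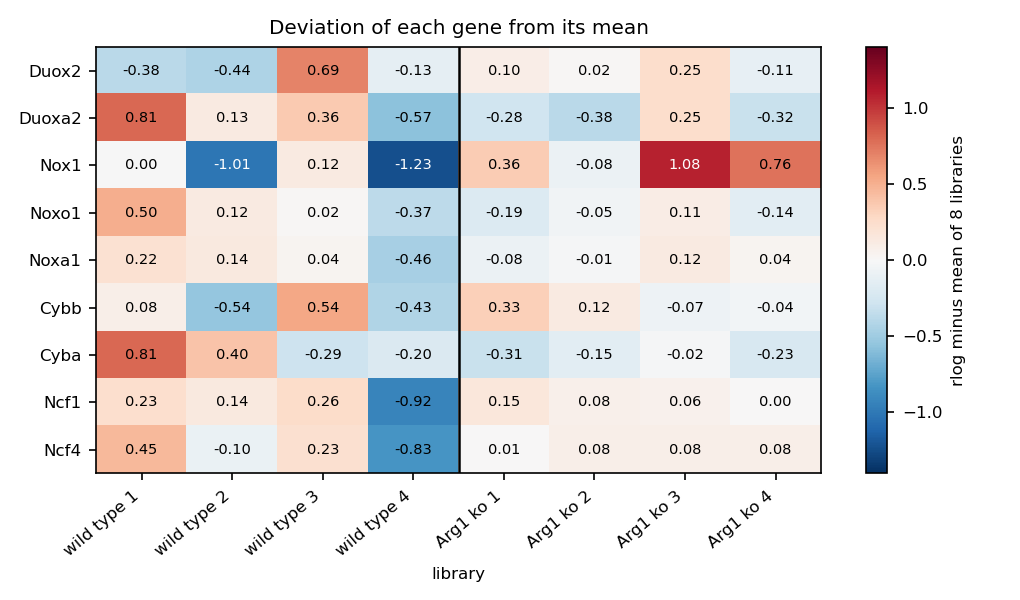
Each gene's rlog value minus its mean over the 8 libraries (colour and number, wild type left and Arg1 ko right of the line). Wild type 4 is at -0.92 for Ncf1 and -0.83 for Ncf4, while Nox1 runs from -1.23 in wild type 4 to 1.08 in Arg1 ko 3.

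The members had a wider spread among wild-type than among ko mice, as most tested genes did. The SD was larger in wild type than in Arg1 ko in 9 of 9 members, where it was larger in 90.9% of all genes. The members had a median SD of 0.52 among wild-type and 0.13 among ko libraries, beside 0.26 and 0.096 over all tested genes. Wild type 4 was the lowest of the 8 libraries in 6 of the 9 members, namely Duoxa2, Nox1, Noxo1, Noxa1, Ncf1 and Ncf4. It was the lowest in 24.3% of all genes. Duox2, Cybb and Cyba were the exceptions, the first 2 of them lowest in wild type 2 and Cyba in Arg1 ko 1.

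Markers of leukocytes varied among the same libraries. All 12 macrophage and monocyte genes were tested, Lyz2, C1qa, C1qb and C1qc the highest, and their summed level was 13.86 to 14.37 in wild type and 13.99 to 14.10 in Arg1 ko. Their mean deviation was -0.39 in wild type 4 and -0.11 to 0.29 elsewhere, and that of the 8 T-cell genes was -0.64 in wild type 4 and -0.12 to 0.36 elsewhere. Wild type 4, low in Ncf1 and Ncf4, was also the lowest library for the B-cell list (-0.43) and the goblet list (-0.43), while the neutrophil list stood at 0.19 there. Of 11 neutrophil genes 7 were tested, Ly6g, S100a9, S100a8 and Retnlg the highest, with a summed level of 8.75 to 10.7 in wild type and 8.77 to 9.21 in Arg1 ko. Among those 7, 6 had a lower and 1 a higher mean in Arg1 ko, at a median difference of -0.52. Ly6g differed by -1.35 (limma adjusted p = 0.522). The granule genes Mpo and Elane were near 0 in every library. The neutrophil list was highest in wild type 2 (0.88), the library with the least Cybb. Of 8 B-cell genes 7 were tested, with a summed level of 7.63 to 9.20 in wild type and 7.92 to 8.19 in Arg1 ko, and a mean deviation of 1.29 in the library labelled wild type 3, which had the most Cybb. Of the 7 tested B-cell genes 6 were lower and 1 higher in Arg1 ko, at a median difference of -0.43. The macrophage and monocyte list had 6 higher and 6 lower, and the T-cell list 3 higher and 5 lower. No member of these 4 lists passed the test over all genes.

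Of the marker lists, that of red blood cells had the largest median difference, and that of fibroblasts the most genes with groups wholly apart. The fibroblast median difference was 0.21, smaller in size than that of the neutrophil (-0.52) and B-cell (-0.43) lists. The 8 fibroblast genes, Dcn, Col3a1, Col1a2 and Pdgfra the highest, had a mean deviation of -0.28 to 0.08 in wild type, highest in the library labelled wild type 3, and of 0.11 to 0.17 in Arg1 ko. Their summed level was 14.5 to 14.8 in wild type and 14.8 to 14.9 in Arg1 ko. In 3 of the 8 the ko values all lay above the wild-type values, as in 386 of the 16380 tested genes (4.03% in either direction). These were the collagen genes Col3a1 (difference 0.70), Col1a2 (0.57) and, named after its values were seen, Col1a1 (0.83). Each had a limma adjusted p of 0.522. Of the 8 fibroblast genes 6 had a higher and 2 a lower mean in Arg1 ko. All 5 tested red blood cell genes, of 6 listed, had a lower mean in Arg1 ko, at a median difference of -0.88, and none passed. The pair of libraries with the most Cyba, wild type 1 (mean deviation 1.35) and wild type 2 (0.85), had the highest values of this list. It stood at 0.27 in wild type 4, -0.75 in the library labelled wild type 3 and -0.78 to -0.011 in Arg1 ko. Their summed level was 12.6 to 14.7 in wild type and 12.6 to 13.3 in Arg1 ko. Of the 8 goblet cell genes 4 were higher and 4 lower, with a summed level of 18.5 to 18.8 in wild type and 18.5 to 18.6 in Arg1 ko. The part of all these cells in the oxidase values was not tested.

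**Figure D5:**
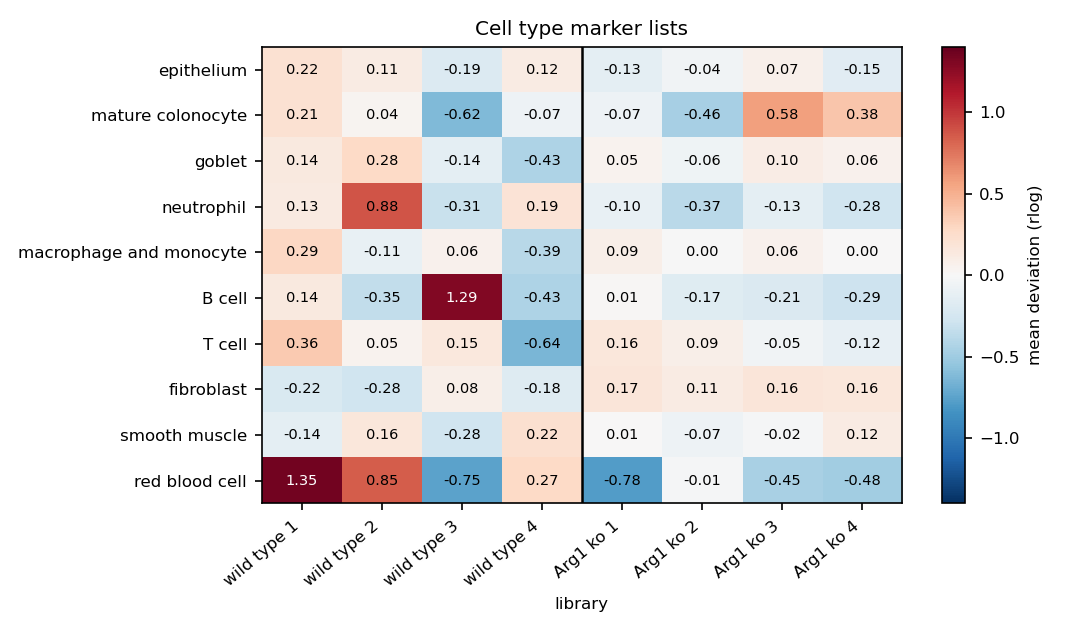
Mean deviation of the tested genes of each cell type marker list from their means over the 8 libraries (colour and number, rlog). The B-cell list stands at 1.29 in the library labelled wild type 3, the neutrophil list at 0.88 in wild type 2 and the T-cell list at -0.64 in wild type 4.

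The genes whose deviations lay nearest to those of Cybb over the 8 libraries were Gbp4 (root mean square distance 0.088), Itgax (0.091), Slfn5 (0.096), Ifi209 (0.097) and Ikzf1 (0.10). Itgax encodes the integrin chain CD11c of dendritic cells and macrophages, Ikzf1 a transcription factor of blood cells, and Gbp4, Slfn5 and Ifi209 are interferon-induced. Cybb itself deviated from its mean by 0.34 in root mean square. These genes were picked as the nearest of 13026, so their closeness follows from the choice. Among the members Duox2 was the nearest to Cybb (0.25, farther than 5.13% of the 13026 genes), and Ncf4 (0.30) and Ncf1 (0.33) came next. By this distance the epithelial Duox2 lay somewhat nearer to Cybb than the subunits of the phagocyte enzyme did. Both were lowest in wild type 2 (-0.44 and -0.54) and highest in the library labelled wild type 3 (0.69 and 0.54). Among the ko libraries they parted, with Arg1 ko 3 the highest for Duox2 (0.25) and the lowest for Cybb (-0.07).

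The rest of the oxidase system gave no calls with all 8 libraries. Of 32 further genes 27 were tested, with 14 above and 13 below wild type in the ko mice, a median difference of 0.0013 and none past the threshold. Nox4, an oxidase of fibroblasts and other stromal cells, was at 4.28 ± 0.05 in wild type (SD, n = 4) and 4.40 ± 0.24 in Arg1 ko (SD, n = 4). Cybc1, a chaperone that gp91phox needs, differed by 0.0013. Duox1, its maturation factor Duoxa1 and Nox3 lay below the filter, with group means of 2.35 and 2.51 for Duox1, and Nox3 was listed at 0 in every library.

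Of 19 regulators 9 were higher and 10 lower, and none passed. The GTPases Rac1 and Rac2, which complete the active NOX1 and phagocyte complexes, differed by -0.15 and -0.06. Dock2 differed by 0.27 and passed only without the library labelled wild type 3 (0.52, limma adjusted p = 0.0358). Among 8 genes whose products use or remove superoxide and hydrogen peroxide, 6 were tested, 3 higher and 3 lower. Lpo, encoding lactoperoxidase, which uses hydrogen peroxide to make antimicrobial oxidants, stood at 11.43 ± 0.11 in wild type (SD, n = 4) and 11.36 ± 0.10 in Arg1 ko (SD, n = 4). The peroxidases of granulocytes, Mpo and Epx, were below the filter. Pxdn, a peroxidase that crosslinks basement membrane collagen, differed by 0.42 (limma adjusted p = 0.522), and Sod1, the cytosolic superoxide dismutase, by -0.37 (limma adjusted p = 0.522). These 3 genes, Dock2, Pxdn (0.61) and Sod1 (-0.57), passed when the library labelled wild type 3 was left out, where 6.14% of all genes did.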

How the data were processed

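Per the labels' protocols, 1000 ng of RNA went into each stranded library. The submitters' processing notes name STAR 2.5.2b, BWA 0.7.14-r1136, featureCounts, Subread 1.5.3, DESeq2 1.16.1 and GRCm38, without order or options. The authors deposited log2 values (rlog) per gene and library, with annotation release and strand setting not given in the sources used here. Symbols came from GENCODE vM21 on GRCm38, matched by Ensembl ID (53360 of 53465 had a symbol). Promoters came from RefSeq (8 of 9 members matched).

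Groups follow the genotype label; replicates are numbered in order of deposit and do not pair, and p-values measure the spread between samples described as mice. Genes with a mean of at least 3 entered limma 3.58.1 (R 4.3.3, variance trend, group term, two-sided, adjusted over all 16380 genes, threshold 0.05). Tables were made with pandas 2.3.3. The fit was also run on simulated data, drawn as independent normal values with the same SD per gene in both genotypes. That setting lacks the wider wild-type spread seen here, so it does not check the p-values under such a spread. A gene of the oxidase system list is not reported here. Members, lists and rules were chosen with earlier results of these data known. Named genes are the members, the oxidase system list, up to 4 markers of highest mean per cell type, and the 5 genes nearest in root mean square distance to Duox2, Nox1 and Cybb over genes with means of 5 or more, predicted genes, pseudogenes and antigen receptor segments left out. Alternatives were the filter, library medians aligned, quantile normalisation, other priors, a threshold of 0.1, each library left out and, added later, a correction for transcript length (natural spline).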

Additional observations from a re-analysis of the deposited data

Results flagged for a closer look

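In 4 of 52 groups of 4 libraries looked at, 1 library stood far from the other 3 by Dixon's criterion, which chance meets in about 1 in 20 groups. Ncf1 in wild type 4 was 6.84, against 7.91 to 8.02 in the other wild-type libraries. Duoxa2 in Arg1 ko 3 was 10.53, against 9.91 to 10.01 in the other ko libraries. Ncf4 in Arg1 ko 1 was 6.46, against 6.53 to 6.54, a gap that is large only beside the very narrow ko range. The mean deviation of the fibroblast list in Arg1 ko 2 was 0.11, against 0.16 to 0.17.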

How the results depend on the processing

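Over the 15 alternatives no member passed the threshold, and 7 of 135 differences of single members changed sign. Those were Duox2 without wild type 2 (-0.00094) and after the length correction (-0.0036), Noxo1 without wild type 1 (0.0061), Noxa1 without wild type 4 (-0.11) and without Arg1 ko 3 (-0.0023), and Ncf1 (-0.14) and Ncf4 (-0.13) without wild type 4. Leaving out each library, Duox2 ran from -0.00094 to 0.38, Noxo1 from -0.29 to 0.0061, Noxa1 from -0.11 to 0.11, Ncf1 from -0.14 to 0.26 and Ncf4 from -0.13 to 0.30. With library medians aligned Noxa1 differed by 0.0039, and with quantile normalisation Ncf1 by 0.091 and Ncf4 by 0.076. Nox1, Cybb, Duoxa2 and Cyba kept their direction throughout, Nox1 between 0.83 and 1.28. In the same fits the count of genes past the threshold ran from 0 to 1005, that of further oxidase system genes from 0 to 3 and that of members with groups apart from 0 to 1. With exons pooled, the level per length of Noxo1 was 9.21. No paired analysis was possible because the labels give the groups no shared replicate numbers. Depth is unknown, so precision rests on the number of libraries.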
